A study of Mus musculus with 4 samples.

Results

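The interferon-stimulated genes are genes whose transcription rises when a cell senses an interferon, and 42 of them were chosen by name as a module for description across 2 sorts of activated mouse CD4 T cells. Of these, 41 had a row among the 28625 gene symbols of the count tables, and Mx2 was not analysed here. Sum levels below leave out Ifi27l2a, which alone held 71.5% of the member UMIs (unique molecular identifiers, 1 per captured transcript) in CD4 T cells of the Tfh sort and 64.3% in those of the IL-4 reporter sort, so they cover 40 members.

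The Tfh sort held T follicular helper cells (TCRβ+ CD4+ CD44+ PD-1+ CXCR5+) of C57BL/6 mice, and the IL-4 reporter sort held activated CD4 T cells positive for the reporter of 4GET mice on a C57BL/6 background, in which GFP follows the Il4 locus. Every mouse had received Alternaria alternata extract (10 µg) and NP-OVA (25 µg) through the nose. Cells of the mediastinal lymph node were taken at day 7 and held with PMA and ionomycin for 30 minutes, and no unstimulated or unimmunized group stands beside them. The labels give no age or sex. Each sort was 1 droplet lane with 3 mice told apart by hashtag antibodies, and the mouse is the replicate. Strain, chemistry version and sequencing run all differ between the sorts, so a difference in level between sorts cannot be told apart from them and was not tested. A difference between sorts in a change between classes, tested below, cannot be told apart from them either.

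After filters, 3780 cells of the Tfh sort (895 to 1472 per mouse) and 3989 of the reporter sort (1144 to 1513 per mouse) belonged to a mouse, with no cell barcode shared between the sorts. Of these, 2933 and 3384 were CD4 T cells, with a median of 2759 and 6608 UMIs per cell. The T-cell markers were all seen in them (7 of 7), with sums of 8924 to 9068 CPM in the Tfh sort and 6602 to 7146 CPM in the reporter sort. Cd79a and both CD8 genes were at 0 by the class rule, and macrophage markers summed to 89.3 to 170 CPM in the Tfh sort (7 of 7 seen) and 9.16 to 53.4 CPM in the reporter sort (6 of 7, Adgre1 at 0). Levels are in CPM (counts-per-million), a gene's UMIs scaled by the summed UMIs of all genes in a class. The 3′ method counts each transcript by its end, so no length term was applied.

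Interferons bind surface receptors that switch on JAK kinases and STAT proteins. Type I interferons lead to a complex with Stat2 and Irf9 that binds the interferon-stimulated response element (ISRE) near gene starts, and interferon gamma acts through another element, the gamma-activated site. Many of the genes switched on encode proteins that bind viral RNA, block virus entry or budding, or tune the response itself, and in T cells a resting tone of the same genes is known without infection.

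Promoter windows of 300 bases (250 before to 50 after the RefSeq start, build GRCm38.p6) were found for 32 of the 42 members. The ISRE letters (GAAA, any 2 bases, GAAA), searched on both strands, were in a window of 18 of the 32 (56.2%), against 1079 of 27025 genes (3.99%). The longer form, with CT after those letters and so overlapping the short one, was in 9 of the 32 (28.1%), against 82 of all genes (0.303%), and the gamma-activated site TTCNNNGAA in 6 (18.8%), against 2582 (9.55%). The 4 windows printed here belong to the members with ISRE letters that ranked highest (1, 3, 5 and 9) by how many other members were seen in the same cell, described further on. Capitals mark the ISRE letters, which read TTTC, any 2 bases, TTTC where the match is on the opposite strand. A match describes the letters and not a binding site. The Ifit1 window lies at chr19:34640639-34640938 on the plus strand. The Rsad2 window lies at chr12:26456403-26456702 on the minus strand. The Pydc4 window, which RefSeq lists under Ifi213, lies at chr1:173599223-173599522 on the minus strand, and the Slfn5 window at chr11:82951852-82952151 on the plus strand.
Ifit1: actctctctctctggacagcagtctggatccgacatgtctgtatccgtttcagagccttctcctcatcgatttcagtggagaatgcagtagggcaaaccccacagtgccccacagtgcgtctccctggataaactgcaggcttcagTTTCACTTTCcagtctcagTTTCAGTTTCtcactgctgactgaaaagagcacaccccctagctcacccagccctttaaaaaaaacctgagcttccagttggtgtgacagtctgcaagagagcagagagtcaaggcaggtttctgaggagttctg
Rsad2: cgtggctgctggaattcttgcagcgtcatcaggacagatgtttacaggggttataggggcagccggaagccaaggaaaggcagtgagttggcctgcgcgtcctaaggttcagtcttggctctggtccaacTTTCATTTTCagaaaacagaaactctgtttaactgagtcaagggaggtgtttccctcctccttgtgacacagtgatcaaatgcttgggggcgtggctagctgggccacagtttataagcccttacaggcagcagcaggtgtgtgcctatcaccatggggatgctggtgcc
Pydc4: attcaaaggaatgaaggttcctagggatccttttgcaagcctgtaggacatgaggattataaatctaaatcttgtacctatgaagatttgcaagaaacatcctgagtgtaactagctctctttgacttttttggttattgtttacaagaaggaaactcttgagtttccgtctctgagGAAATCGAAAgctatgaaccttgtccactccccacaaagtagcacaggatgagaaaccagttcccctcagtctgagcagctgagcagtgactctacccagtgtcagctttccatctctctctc
Slfn5: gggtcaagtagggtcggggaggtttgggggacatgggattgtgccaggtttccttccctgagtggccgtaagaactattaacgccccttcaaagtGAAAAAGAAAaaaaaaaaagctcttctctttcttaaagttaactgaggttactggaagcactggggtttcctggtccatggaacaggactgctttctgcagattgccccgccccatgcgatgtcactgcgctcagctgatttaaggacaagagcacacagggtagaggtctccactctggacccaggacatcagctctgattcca
The match nearest to the start ended 75 bases before it in Ifit1, 110 in Rsad2, 63 in Pydc4 and 145 in Slfn5. Isg15 held 3 matches in its window. None of the 3 motifs was in a window of 11 of the 32 members, which include Irf7, Irf9, Sp100, Samd9l and Ifi47.

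The members' levels spanned more than 4 orders of magnitude in CD4 T cells. Ifi27l2a, a small mitochondrial membrane protein gene named for its induction by interferon alpha, had 3063, 3195 and 2827 CPM in mice 1, 2 and 3 of the Tfh sort and 2167, 1582 and 1596 CPM in those of the reporter sort. Sp100, a component of nuclear bodies, came next with 197, 207 and 181 CPM in the Tfh sort and 154, 154 and 150 CPM in the reporter sort. Isg15, the ubiquitin-like modifier, had 134, 151 and 125 CPM in the Tfh sort and 68.3, 64.6 and 70.5 CPM in the reporter sort. For these 3 genes each mouse of the Tfh sort lay above each mouse of the reporter sort. Bst2 (tetherin, which holds budding virus at the cell surface) had 63.8, 89.2 and 63.0 CPM in the Tfh sort and 62.6, 72.8 and 58.5 CPM in the reporter sort. Phf11b had 69.3, 81.6 and 82.5 CPM in the Tfh sort and 61.2, 64.1 and 70.8 CPM in the reporter sort. Zbp1, a sensor of left-handed nucleic acid, lay between 51.8 and 77.3 CPM over all 6 mice, Ifi47, an interferon-inducible GTPase, between 51.6 and 66.7 CPM, and Ifi203, a nuclear DNA-binding protein of the PYHIN family, between 49.8 and 95.4 CPM. In the Tfh sort 3 members averaged 100 CPM or more, 22 had 10 to 100, 14 had 1 to 10 and 2 had less than 1. The counts for the reporter sort were 2, 21, 12 and 6.

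**Figure D1:**
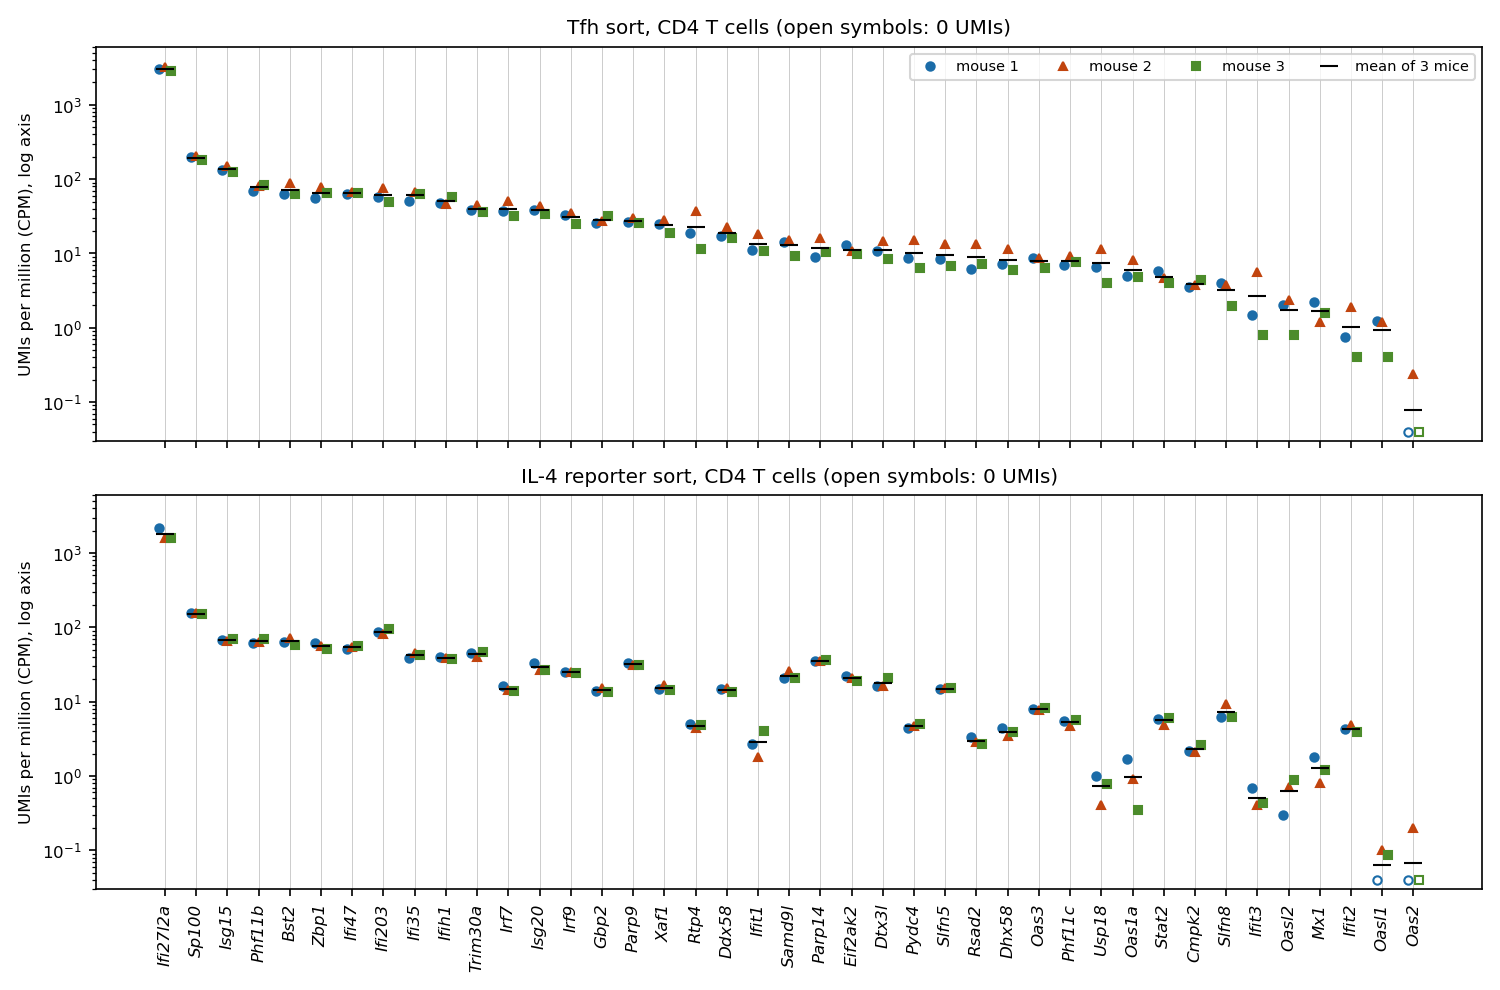
Level of each of the 41 measured members (CPM, log axis) in CD4 T cells of the Tfh sort (upper panel) and the IL-4 reporter sort (lower panel), ordered by the mean in the Tfh sort; symbols are the 3 mice of each sort, which are different animals in the 2 panels, bars are means, and open symbols stand for 0 UMIs. Ifi27l2a stands above 1500 CPM in every mouse, and in the Tfh sort mouse 2 lies on top for most members under 50 CPM.

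Ifit1, Rtp4 and Usp18 sat lower than the members above. Ifit1, which binds foreign RNA caps, averaged 13.4 ± 4.17 CPM in the Tfh sort and 2.86 ± 1.15 CPM in the reporter sort (SD, n = 3 mice each). Rtp4, a chaperone of membrane receptors, had 19.0, 37.4 and 11.6 CPM in the Tfh sort and 5.08, 4.42 and 4.78 CPM in the reporter sort. Usp18, the protease that removes Isg15 and dampens receptor signalling, averaged 7.36 CPM in the Tfh sort and 0.727 CPM in the reporter sort. Ifit2 ran the other way, at 1.01 CPM in the Tfh sort and 4.34 CPM in the reporter sort. Among the 2′-5′ oligoadenylate synthetases, which make the messenger that activates RNase L, Oas3 averaged 7.96 CPM in the Tfh sort and 8.05 CPM in the reporter sort, whereas Oas2 was caught as 1 UMI in the Tfh sort and 2 UMIs in the reporter sort. Genes with close relatives (the Ifit, Oas, Phf11, Trim30, Slfn and PYHIN families among the members) may share reads, so their separate values are uncertain.

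The 40 members summed to 1138, 1374 and 1094 CPM in mice 1, 2 and 3 of the Tfh sort and to 987, 982 and 987 CPM in those of the reporter sort. Mouse 2 of the Tfh sort had the highest value for 29 of the 37 members with 20 or more UMIs (78.4%), where it was highest for 32.4% of 9783 genes of that count and for 20 of 44 other interferon-induced genes (45.5%). Mouse 3 was lowest for 27 of the 37 (73.0%), against 35.4% of all genes. In the B cells of the same sort mouse 2 was highest for 9 of 22 members (40.9%), and for 47.3% of all genes. Mice 1, 2 and 3 of the reporter sort were highest for 13, 10 and 15 of 38 members (34.2%, 26.3% and 39.5%), and for 25.5%, 32.8% and 41.6% of all genes. Macrophage markers summed to 170, 110 and 89.3 CPM in CD4 T cells of mice 1, 2 and 3 of the Tfh sort, and their part in these rankings was not tested. With 1 sum per mouse these rankings are descriptions with no test, and members seen in the same cells are not independent.

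Between cells the members were unevenly spread, more so in the Tfh sort. With every CD4 T cell thinned to 1500 UMIs, 2871 cells of the Tfh sort (62 too shallow) showed 1.66 ± 1.82 of the 40 members per cell and 3189 of the reporter sort (195 too shallow) showed 1.5 ± 1.39 (SD over cells). None of the 40 was seen in 23.9% of cells of the Tfh sort and 24.9% of those of the reporter sort. Cells with 6 or more members made up 3.48% of the Tfh sort (100 cells) and 1.38% of the reporter sort (44 cells), and the highest count was 19 and 13 members in 1 cell of each sort. By mouse, cells with 6 or more were 2.71%, 5.01% and 2.02% of the Tfh sort and 0.652%, 1.39% and 2.03% of the reporter sort, so the sorts overlap when taken by mouse. The variance over the mean of the summed UMIs, which would be near 1 for even counting, was 2.54, 3.78 and 2.69 in the mice of the Tfh sort and 1.42, 1.78 and 1.88 in those of the reporter sort, and here the sorts do not overlap. It was 1.80 in B cells of the Tfh sort and 1.61 in those of the reporter sort.

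**Figure D2:**
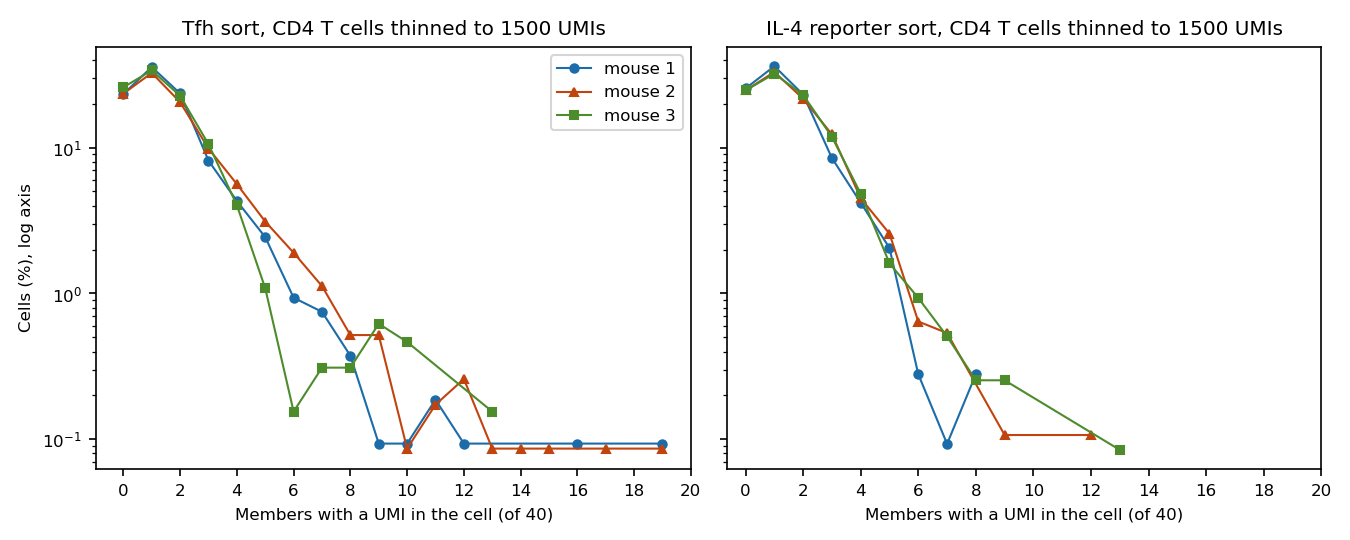
Share of CD4 T cells (percent, log axis) by the number of the 40 members with a UMI in the cell, after thinning to 1500 UMIs, for each mouse of the Tfh sort (left) and the IL-4 reporter sort (right); numbers of members with no cell are not drawn. Most cells show 0 to 3 members, and the tail reaches 19 in the Tfh sort and 13 in the reporter sort.

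In the Tfh sort, cells with a Usp18 UMI held 5.76 other members on average (25 cells), against 1.61 in cells without one. Cells with an Ifit1 UMI held 5.30 (46 cells), against 1.58, and cells with an Rsad2 UMI held 5.13 (39 cells), against 1.60. Rsad2 encodes viperin, an enzyme that makes a chain-ending nucleotide, and with Ifit1 it has ISRE letters in the window printed above. Rtp4 (4.89 in 99 cells, against 1.51), Phf11c (4.90 in 30 cells, against 1.61), Dhx58 (4.68 in 34 cells, against 1.61), Pydc4 (4.49 in 51 cells, against 1.59) and Slfn5 (3.98 in 48 cells, against 1.60) followed. By mouse the Ifit1 value was 2.72, 7.00 and 6.86 in cells with it and 1.55, 1.70 and 1.43 in cells without, so mouse 1 stood well below the others. The Usp18 value was 6.75, 5.21 and 5.67 with it and 1.54, 1.76 and 1.48 without. At the other end, cells with Sp100 held 1.70 other members (755 cells), against 1.29.

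In the reporter sort Ifit1 and Rtp4 led, with smaller gaps. Cells with Ifit1 held 3.85 other members (20 cells), against 1.47, cells with Rtp4 3.11 (28 cells), against 1.47, and cells with Rsad2 2.65 (20 cells), against 1.48. Pydc4 gave 2.66 (35 cells), against 1.47. Ifit2, although an Ifit gene, gave 1.62 (29 cells), against 1.49, and Sp100 gave 1.37 (723 cells), against 1.24. These averages describe cells of 3 mice and carry no test.

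**Figure D3:**
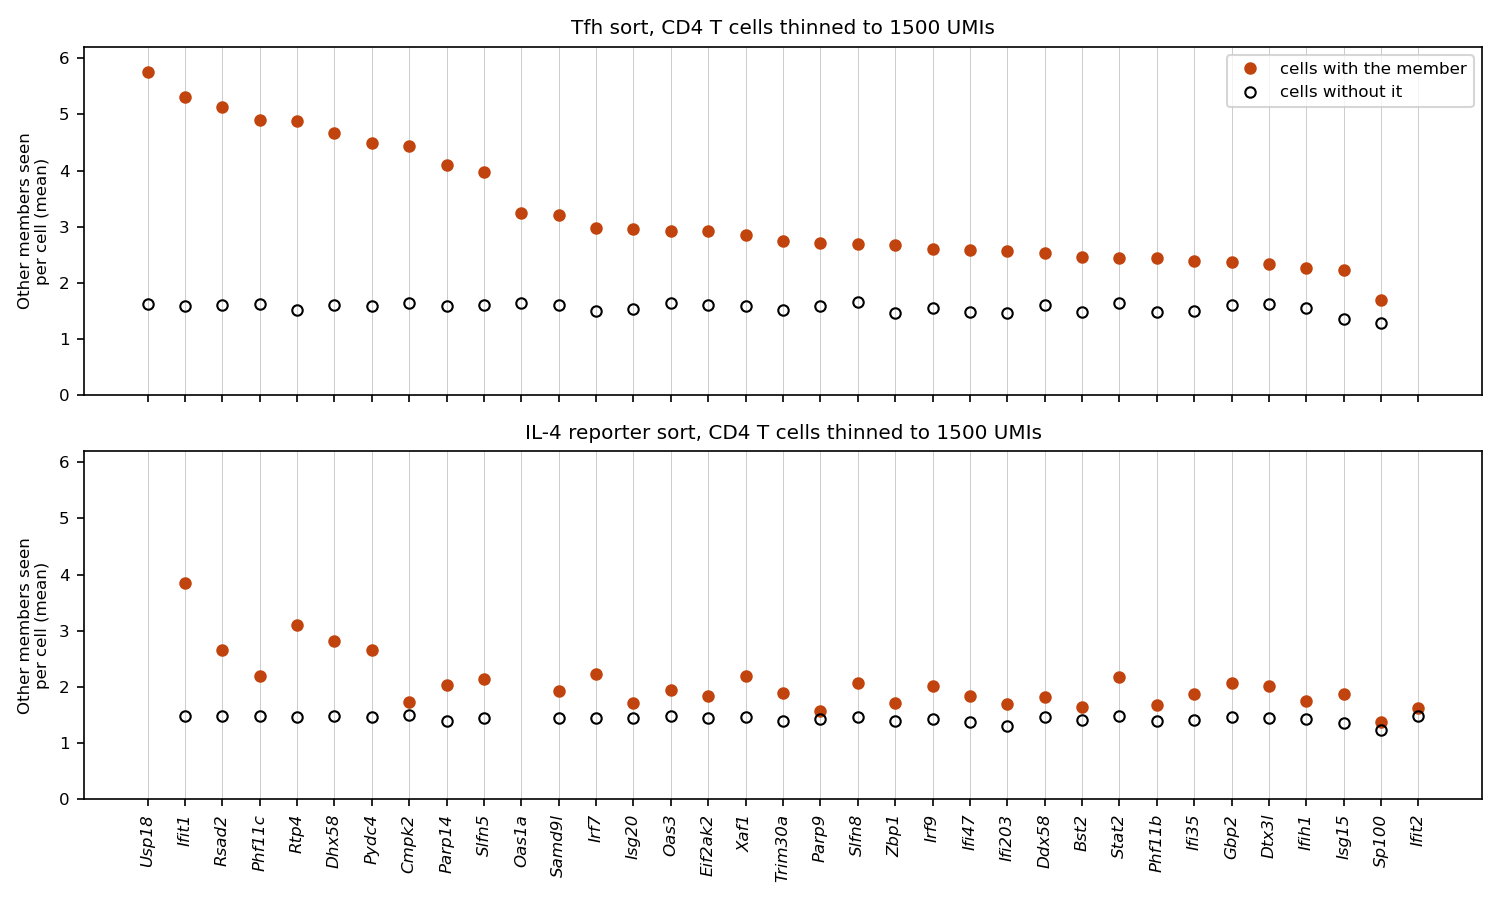
Mean number of other members (of the 40) seen per CD4 T cell thinned to 1500 UMIs, in cells with a UMI of the named member (filled) and in cells without one (open), for the Tfh sort (upper) and the IL-4 reporter sort (lower), shown where enough cells held the member. The filled points fall from 5.76 at Usp18 to 1.70 at Sp100 in the Tfh sort, while the open points stay between 1.2 and 1.7.

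Classes of cells were then compared within each mouse by edgeR's quasi-likelihood test on summed UMIs, with p-values adjusted by Benjamini-Hochberg over all genes tested. A cell was called positive for Il4 or Il13 with 2 or more UMIs and negative with 0, and for Foxp3, Gata3 or Cxcr5 with 1 or more against 0. Such calls are easier in deep cells, and the summed CPM of the 40 members varied with depth. In the shallow, middle and deep tertiles of CD4 T cells it was 1219, 1007 and 926 CPM in mouse 1, 1298, 1137 and 870 CPM in mouse 2 and 1286, 1194 and 862 CPM in mouse 3 of the reporter sort. In the Tfh sort it was 1111, 1229 and 1105 CPM in mouse 1, 1523, 1459 and 1290 CPM in mouse 2 and 1396, 1204 and 956 CPM in mouse 3. It fell with depth in 5 of the 6 mice, and in mouse 1 of the Tfh sort the middle tertile was highest. Each comparison was therefore repeated with the classes matched for UMIs per cell within each mouse, and both results are given.

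In the Tfh sort, Il4+ cells had more Ifi27l2a than Il4- cells and less of 4 other members. Of the 41 members 32 passed the filter on low counts, and 1 rose and 4 fell; over all 7834 genes 2.69% rose and 3.11% fell (5.81% together), and the median log2 change was -0.17 for members and 0.00 for all genes. Ifi27l2a had 3535, 3429 and 3306 CPM in Il4+ cells and 2477, 2871 and 2472 CPM in Il4- cells (log2 change 0.37 ± 0.03 SE, adjusted p = 9.3e-08), without overlap. Pydc4, a PYHIN relative, had 4.64, 8.52 and 1.72 CPM in Il4+ cells and 13.1, 24.0 and 10.1 CPM in Il4- cells (log2 change -1.62 ± 0.31, adjusted p = 0.002), again without overlap, from 27 and 70 UMIs. Ifit1 had 9.28, 13.0 and 4.31 CPM in Il4+ cells and 16, 25.8 and 21.3 CPM in Il4- cells (log2 change -1.16 ± 0.27, adjusted p = 0.0093). Ifi203 had 47.6, 66.6 and 40.5 CPM in Il4+ cells and 67.7, 84.3 and 59.5 CPM in Il4- cells (log2 change -0.47 ± 0.13, adjusted p = 0.03), with groups that overlap. Sp100 had 172, 194 and 168 CPM in Il4+ cells and 212, 218 and 204 CPM in Il4- cells (log2 change -0.27 ± 0.08, adjusted p = 0.045).

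At matched depth 27 members were tested against a background of 1.06% of genes called, and Ifi27l2a (log2 change 0.38) and Ifit1 (-1.88, adjusted p = 0.027) were called again in the same direction. Pydc4 no longer passed the count filter. Without mouse 1 the 5 calls of the Il4 comparison were 3, and without mouse 3 they were 2, with Ifit1 at -0.93 (adjusted p = 0.061). Over all genes the 455 calls were 207 without mouse 1 and 314 without mouse 3. The call of Ifi203 was lost without mouse 1 (adjusted p = 0.23) and without mouse 3 (0.07), and that of Sp100 without mouse 1 (0.3), mouse 2 (0.073) or mouse 3 (0.14). Macrophage markers summed to 285, 15.5 and 9.48 CPM in Il4+ cells (6 of 7 seen, Adgre1 at 0) and 107, 260 and 239 CPM in Il4- cells (7 of 7). With cells holding 3 or more UMIs of Lyz2, C1qa, C1qb and C1qc left out, 6 members were called, and 653 of all genes (455 with those cells). Csf1r, Adgre1 and Cd68 did not enter that rule. Of the genes around the module, Ifng, the type II interferon itself, averaged 61.3 CPM in Il4+ cells and 203 CPM in Il4- cells (log2 change -1.74 ± 0.17, adjusted p = 1.2e-07). It was the 1 of 12 ligand genes with enough counts to test. Signalling genes had 0 higher and 3 lower of 13 tested, among them Irf8 (log2 change -1.38, adjusted p = 6.5e-05), an interferon regulatory factor. Over all genes 2.69% rose and 3.11% fell.

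Foxp3+ cells of the Tfh sort, which carry the lineage factor of regulatory T cells, were few, and mouse 3 with 9 such cells was left out of this fit. Of 33 members tested 1 rose and 2 fell, against 2.38% and 2.83% of 8352 genes (5.21% together). The median log2 change was -0.37 for members and -0.06 for all genes. Ifi27l2a had 2014 and 2045 CPM in Foxp3+ cells of mice 1 and 2 and 3132 and 3229 CPM in Foxp3- cells (log2 change -0.75 ± 0.13, adjusted p = 3.9e-05). Isg15 had 96.9 and 40.9 CPM in Foxp3+ cells and 137 and 154 CPM in Foxp3- cells (log2 change -1.0 ± 0.27, adjusted p = 0.014). Bst2 went the other way, with 129 and 147 CPM in Foxp3+ cells and 59.5 and 87.4 CPM in Foxp3- cells (log2 change 0.85 ± 0.25, adjusted p = 0.03). None of the 3 overlapped between classes. At matched depth 7 members could be tested and Ifi27l2a alone was called (log2 change -0.69, adjusted p = 0.034, with 0.813% of genes called). The match was incomplete, with medians of 5511 and 4579 UMIs in Foxp3+ cells of mice 1 and 2 and 4551 and 3784 in Foxp3- cells. Those Foxp3- cells were a random draw of 33 and 21. Macrophage markers summed to 521 and 0 CPM in Foxp3+ cells of mice 1 and 2 (4 of 7 seen, C1qb, Csf1r and Adgre1 at 0) and to 147 and 113 CPM in Foxp3- cells. B-cell markers summed to 912 and 924 CPM in Foxp3+ cells and 378 and 338 CPM in Foxp3- cells. The number of members called was 3 as well without cells holding 3 or more UMIs of Lyz2, C1qa, C1qb and C1qc. Over all genes 507 were called without those cells and 435 with them.

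CD8-like T cells, 38 cells with CD8 transcripts that the gate should not hold, had little Ifi27l2a. It stood at 626, 733 and 933 CPM in CD8-like cells and at 3063, 3195 and 2827 CPM in CD4 T cells (log2 change -2.02 ± 0.15, adjusted p = 3.8e-38). It was the 1 member called of 27 tested, against 2% of 7096 genes higher and 2.83% lower (4.83% together), and 6 members had an unadjusted p under 0.05. The median log2 change was -0.61 for members and -0.43 for all genes. Ifng averaged 2112 CPM in CD8-like cells and 116 CPM in CD4 T cells (log2 change 4.11, adjusted p = 1.1e-98). These very small p-values rest on sums of 14, 11 and 13 CD8-like cells and on a spread that edgeR shares over genes. They do not measure how far the 3 mice differ for these 2 genes. Without mouse 1 the change of Ifi27l2a was -1.90 at an adjusted p of 0.25. Then 0 genes of the whole table were called, against 343 with all mice, so the lost call is not particular to the member. Without mouse 3, 2 members and 270 genes were called. At matched depth Ifi27l2a was the 1 member tested, and it was called (log2 change -1.32, adjusted p = 0.038). It had 626, 733 and 933 CPM in CD8-like cells and 1006, 3841 and 1660 CPM in the matched CD4 T cells, a random draw of 14, 11 and 13 cells. The CD8-like cells of the reporter sort (31, 9 and 19 cells, not tested) had 196, 75.2 and 314 CPM, against 2167, 1582 and 1596 CPM in its CD4 T cells. The other 40 members summed to 877, 635 and 1004 CPM in CD8-like cells of the Tfh sort and 1138, 1374 and 1094 CPM in its CD4 T cells of all depths, with no overlap. Against the same draw of matched CD4 T cells, at 709, 928 and 749 CPM, the groups overlapped. CD8-like cells were then higher in mice 1 and 3 and lower in mouse 2. A draw this small is uncertain, since the lowest depth tertile of all CD4 T cells stood at 1105, 1290 and 956 CPM in these mice. Whether depth has a part in the lower sum of CD8-like cells is therefore not settled by it. The sums for the reporter sort were 1057, 945 and 999 CPM in CD8-like cells and 987, 982 and 987 CPM in CD4 T cells.

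In B cells of the Tfh sort (562 cells with 2 or more Cd79a UMIs) 2 members rose and 11 fell of 31 tested, where 18.3% of 8005 genes rose and 16.1% fell (34.4% together). The median log2 change was -0.28 for members and 0.00 for all genes. Samd9l, a growth inhibitor induced by interferon, had 43.3, 26.0 and 30.8 CPM in B cells and 14.3, 15.1 and 9.16 CPM in CD4 T cells (log2 change 1.53 ± 0.26, adjusted p = 0.00019). Ifi35 had 77.2, 76.6 and 63.4 CPM in B cells and 50.3, 68.1 and 63.4 CPM in CD4 T cells (log2 change 0.46 ± 0.17, adjusted p = 0.042), and the groups overlap, with mouse 3 at the same level in both. Without mouse 1 it was 0.25 (adjusted p = 0.45), and without mouse 3 it was 0.55 (adjusted p = 0.077). Isg15 had 33.8, 35.6 and 29.0 CPM in B cells and 134, 151 and 125 CPM in CD4 T cells (log2 change -1.87 ± 0.16, adjusted p = 8.5e-08). Ifih1, the sensor of long double-stranded RNA also called MDA5, had 8.12, 19.2 and 7.24 CPM in B cells and 47.8, 46.1 and 57.0 CPM in CD4 T cells (log2 change -1.88 ± 0.28, adjusted p = 6e-05). Isg15 and Ifih1 left a wide gap between the classes in every mouse.

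Ifi27l2a had 779, 1006 and 746 CPM in B cells and 3063, 3195 and 2827 CPM in CD4 T cells of the Tfh sort (log2 change -1.67 ± 0.08, adjusted p = 2.1e-11). Phf11c had 2.71, 1.37 and 1.81 CPM in B cells and 7.01, 9.22 and 7.57 CPM in CD4 T cells (log2 change -1.80 ± 0.59, adjusted p = 0.026), a call that was lost without mouse 2 (adjusted p = 0.19) and without mouse 3 (adjusted p = 0.085). Ifit1 was caught as 1 UMI among 2021583 in B cells and as 149 among 10734268 in CD4 T cells, a level 28.1 times higher in CD4 T cells with a 95% counting interval from 4.96 to 1116 (adjusted p = 0.00023 by edgeR). Slfn5, Gbp2, Ifi47, Phf11b, Rtp4 and Zbp1 were the other members that fell. At matched depth, with a background of 32.0%, 8 of the 9 called members that could be tested again kept their call and direction, among them Samd9l, Isg15, Ifih1 and Ifi27l2a. T-cell markers summed to 1239, 2283 and 1342 CPM in the B cells (7 of 7 seen) and 8924, 8941 and 9068 CPM in CD4 T cells, and 63.9% of the B cells held a T-cell receptor complex UMI. In B cells without one, 9 members were called and Ifit1 was not (adjusted p = 0.12). Over all genes 2184 were called there, against 2756 with all B cells.

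The B cells of the reporter sort (250 cells, 83.2% with a T-cell receptor complex UMI) gave a similar list. Of 35 members tested 1 rose and 6 fell, against 7.87% and 7.53% of 10169 genes (15.4% together). Samd9l had 67.2, 59.4 and 40.2 CPM in B cells and 20.5, 26.0 and 20.7 CPM in CD4 T cells (log2 change 1.38 ± 0.22, adjusted p = 0.00066). Isg15 had 21.3, 11.9 and 16.1 CPM in B cells and 68.3, 64.6 and 70.5 CPM in CD4 T cells (log2 change -1.93 ± 0.25, adjusted p = 9.8e-05). Ifi27l2a had 579, 538 and 424 CPM in B cells and 2167, 1582 and 1596 CPM in CD4 T cells (log2 change -1.69 ± 0.13, adjusted p = 5.1e-07). Neither overlapped between the classes. Ifih1 had 6.56, 20.8 and 9.50 CPM in B cells and 39.5, 38.2 and 38.1 CPM in CD4 T cells (log2 change -1.75 ± 0.32, adjusted p = 0.0018). Ifi47 (log2 change -1.03 ± 0.25, adjusted p = 0.013) and Phf11b (-0.85 ± 0.23, adjusted p = 0.022) fell too, and both calls were lost without mouse 3 (adjusted p = 0.3 and 0.32), as did Zbp1 (-0.78, adjusted p = 0.028). At matched depth Samd9l, Isg15, Ifih1 and Ifi27l2a kept their calls (10.1% of genes called). T-cell markers summed to 1776, 3416 and 1552 CPM in these B cells. B cells without a T-cell receptor complex UMI numbered 9, 9 and 24 by mouse, too few to repeat the test in them.

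Among the genes around the module, Irf8, a regulatory factor of B-cell and myeloid development, averaged 605 CPM in B cells and 28.8 CPM in CD4 T cells of the Tfh sort (log2 change 4.55, adjusted p = 4.1e-14) and 302 CPM in B cells and 6.08 CPM in CD4 T cells of the reporter sort (log2 change 5.73, adjusted p = 2.5e-10), by edgeR. Tlr7, a sensor of single-stranded RNA in endosomes, averaged 20.7 CPM in B cells and 0.654 CPM in CD4 T cells of the Tfh sort (log2 change 4.89). Signalling genes had 7 higher and 3 lower of 13 in the Tfh sort and 4 higher and 2 lower of 13 in the reporter sort. Other interferon-induced genes had 3 higher and 11 lower of 37 in the Tfh sort and 3 higher and 6 lower of 42 in the reporter sort. Over all genes 18.3% rose and 16.1% fell in the Tfh sort, and 7.87% rose and 7.53% fell in the reporter sort. A test of whether the B-cell change differed between the sorts (interaction term, 12 sums) called 0 of 33 members, with 1 at an unadjusted p under 0.05, and 0.5% of 9206 genes.

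In the reporter sort, Il13+ cells, which transcribe the main Th2 effector cytokine, had less of most members. Of 34 tested, 2 rose and 21 fell, against 28.4% and 29.1% of 9787 genes (57.4% together). The median log2 change was -0.61 for members and -0.04 for all genes. Bst2 had 89.8, 101 and 84.3 CPM in Il13+ cells and 48.0, 48.9 and 47.6 CPM in Il13- cells (log2 change 0.93 ± 0.09, adjusted p = 1.6e-06). Oas3 had 14.5, 10.8 and 12.8 CPM in Il13+ cells and 4.12, 4.35 and 6.37 CPM in Il13- cells (log2 change 1.36 ± 0.22, adjusted p = 0.00016). Both rose in every mouse without overlap, and both kept their calls at matched depth, Bst2 at 0.70 (adjusted p = 0.00036) and Oas3 at 1.13 (adjusted p = 0.0079).

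Among the members that fell in Il13+ cells, Pydc4 had 1.74, 1.12 and 1.48 CPM in Il13+ cells and 6.18, 8.71 and 6.79 CPM in Il13- cells (log2 change -2.32 ± 0.33, adjusted p = 6.6e-05). Ifit1 had 0.579, 1.35 and 0.593 CPM in Il13+ cells and 4.12, 2.28 and 5.95 CPM in Il13- cells (log2 change -2.14 ± 0.48, adjusted p = 0.0022), from 10 and 77 UMIs. Rsad2 had 2.32, 1.35 and 0.593 CPM in Il13+ cells and 4.29, 4.35 and 3.82 CPM in Il13- cells (log2 change -1.55 ± 0.40, adjusted p = 0.005). None of these groups overlapped. Slfn8, of the Schlafen family of growth and translation inhibitors, had 3.76, 4.04 and 2.67 CPM in Il13+ cells and 8.06, 14.5 and 7.79 CPM in Il13- cells (log2 change -1.53 ± 0.25, adjusted p = 0.00018). Rtp4 had 3.76, 1.35 and 1.48 CPM in Il13+ cells and 5.32, 6.43 and 5.95 CPM in Il13- cells (log2 change -1.45 ± 0.36, adjusted p = 0.0043; 0.065 without mouse 2). By role, 3 of 5 sensors of RNA and DNA, 4 of 5 signalling members (Irf7, Irf9, Stat2 and Isg15) and 4 of 5 members of the ADP-ribosylation and ubiquitin group fell. The virus restriction group had 4 lower and 1 higher of 7, and the nuclear and other group 4 lower of 7. The GTPases and the Ifit genes had 1 lower of 2 each, and the 1 Oas gene tested rose. Over all genes 29.1% fell and 28.4% rose.

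Most of these falls were not seen at matched depth. With 460 of the 589 Il13+ cells matched, 25 members were tested and 2 rose and 3 fell, against 21.2% of genes called, and the members' median log2 change was -0.04. The 3 that fell were Trim30a (log2 change -1.18 in all cells, -0.70 at matched depth, adjusted p = 0.002), Ifih1 (-0.76 and -0.53, adjusted p = 0.03) and Ifi27l2a (-0.83 and -0.28, adjusted p = 0.00078). Pydc4, Ifit1, Rsad2 and Rtp4 no longer passed the count filter there, so at matched depth they were not tested. The median UMIs per cell were 12121, 12893 and 14820.5 in Il13+ cells and 6374, 6194 and 5819 in Il13- cells. The sum of the 40 members was 909, 815 and 720 CPM in Il13+ cells and 1033, 1107 and 1116 CPM in Il13- cells of all depths. It was 935, 974 and 837 CPM in Il13+ cells and 931, 992 and 941 CPM in Il13- cells at matched depth, where the groups overlap. Macrophage markers summed to 5.50, 6.29 and 57.3 CPM in Il13+ cells and 11.0, 104 and 49.8 CPM in Il13- cells (6 of 7 seen in each, Adgre1 at 0). Without cells holding 3 or more UMIs of Lyz2, C1qa, C1qb and C1qc, 23 members were called, and 5612 of all genes (5622 with those cells).

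Of the genes upstream, the receptor gene Ifngr1 rose (log2 change 0.80, adjusted p = 5.3e-05; 1.15 at matched depth) and Ifnar2 fell (-1.01, adjusted p = 0.00012; -0.70 at matched depth). Signalling genes had 0 higher and 8 lower of 13, and other interferon-induced genes 9 higher and 17 lower of 42. Over all genes 28.4% rose and 29.1% fell. Ifitm3, which blocks virus entry, averaged 113 CPM in Il13+ cells and 12.5 CPM in Il13- cells (log2 change 3.15, adjusted p = 4e-08; 2.75 at matched depth), whereas Trim30d averaged 1.45 CPM in Il13+ cells and 10.5 CPM in Il13- cells (log2 change -2.83, adjusted p = 3.4e-06; -2.04 at matched depth).

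Gata3+ cells of the reporter sort showed 2 members higher and 17 lower of 34 tested, against 21.1% and 20.2% of 9971 genes (41.3% together). Their median log2 change was -0.47, against -0.04 for all genes. Bst2 had 67.6, 79.4 and 65.2 CPM in Gata3+ cells and 48.9, 50.3 and 40.2 CPM in Gata3- cells (log2 change 0.61 ± 0.10, adjusted p = 0.00019). Oas3 had 9.08, 8.97 and 9.37 CPM in Gata3+ cells and 5.26, 3.53 and 5.55 CPM in Gata3- cells (log2 change 0.91 ± 0.24, adjusted p = 0.0063). The members that rose were thus the same 2 as in Il13+ cells, and the classes share cells. Ifit1 had 0.677, 1.30 and 2.61 CPM in Gata3+ cells and 8.27, 3.53 and 8.17 CPM in Gata3- cells (log2 change -2.09 ± 0.38, adjusted p = 0.00049). Pydc4 had 3.25, 3.12 and 3.20 CPM in Gata3+ cells and 7.90, 10.1 and 9.80 CPM in Gata3- cells (log2 change -1.53 ± 0.25, adjusted p = 0.0002). Slfn5 had 12.1, 10.9 and 10.7 CPM in Gata3+ cells and 22.2, 29.1 and 28.1 CPM in Gata3- cells (log2 change -1.24 ± 0.16, adjusted p = 2.1e-05). No mouse of 1 class reached into the other class for these 3.

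At matched depth (1120 of 1971 Gata3+ cells) 33 members were tested and Sp100 alone was called, at -0.27 (adjusted p = 0.021, with 6.31% of genes called). All cells gave -0.52 ± 0.07 (adjusted p = 6e-05). Ifit1 stood at -1.46 (adjusted p = 0.078), Slfn5 at -0.53 (adjusted p = 0.087) and Rtp4 at 0.01, after -0.92 (adjusted p = 0.014) in all cells. Slfn8, called in all cells at -0.99 (adjusted p = 0.011), was at -0.38 (adjusted p = 0.34) without mouse 2. Rtp4 was at -0.84 (adjusted p = 0.057) without mouse 2 and at -0.71 (adjusted p = 0.12) without mouse 3. Macrophage markers summed to 8.53, 5.72 and 29.6 CPM in Gata3+ cells and 10.9, 215 and 113 CPM in Gata3- cells (6 of 7 seen in each, Adgre1 at 0). With cells holding 3 or more UMIs of Lyz2, C1qa, C1qb and C1qc left out, 19 members were called, and 4204 of all genes (4122 with those cells). Ifitm3 (log2 change 3.26, and 2.43 at matched depth) and Ifitm2 (2.38, and 1.54 at matched depth) rose among 7 higher and 17 lower of 44 other interferon-induced genes. Over all genes 21.1% rose and 20.2% fell.

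**Figure D4:**
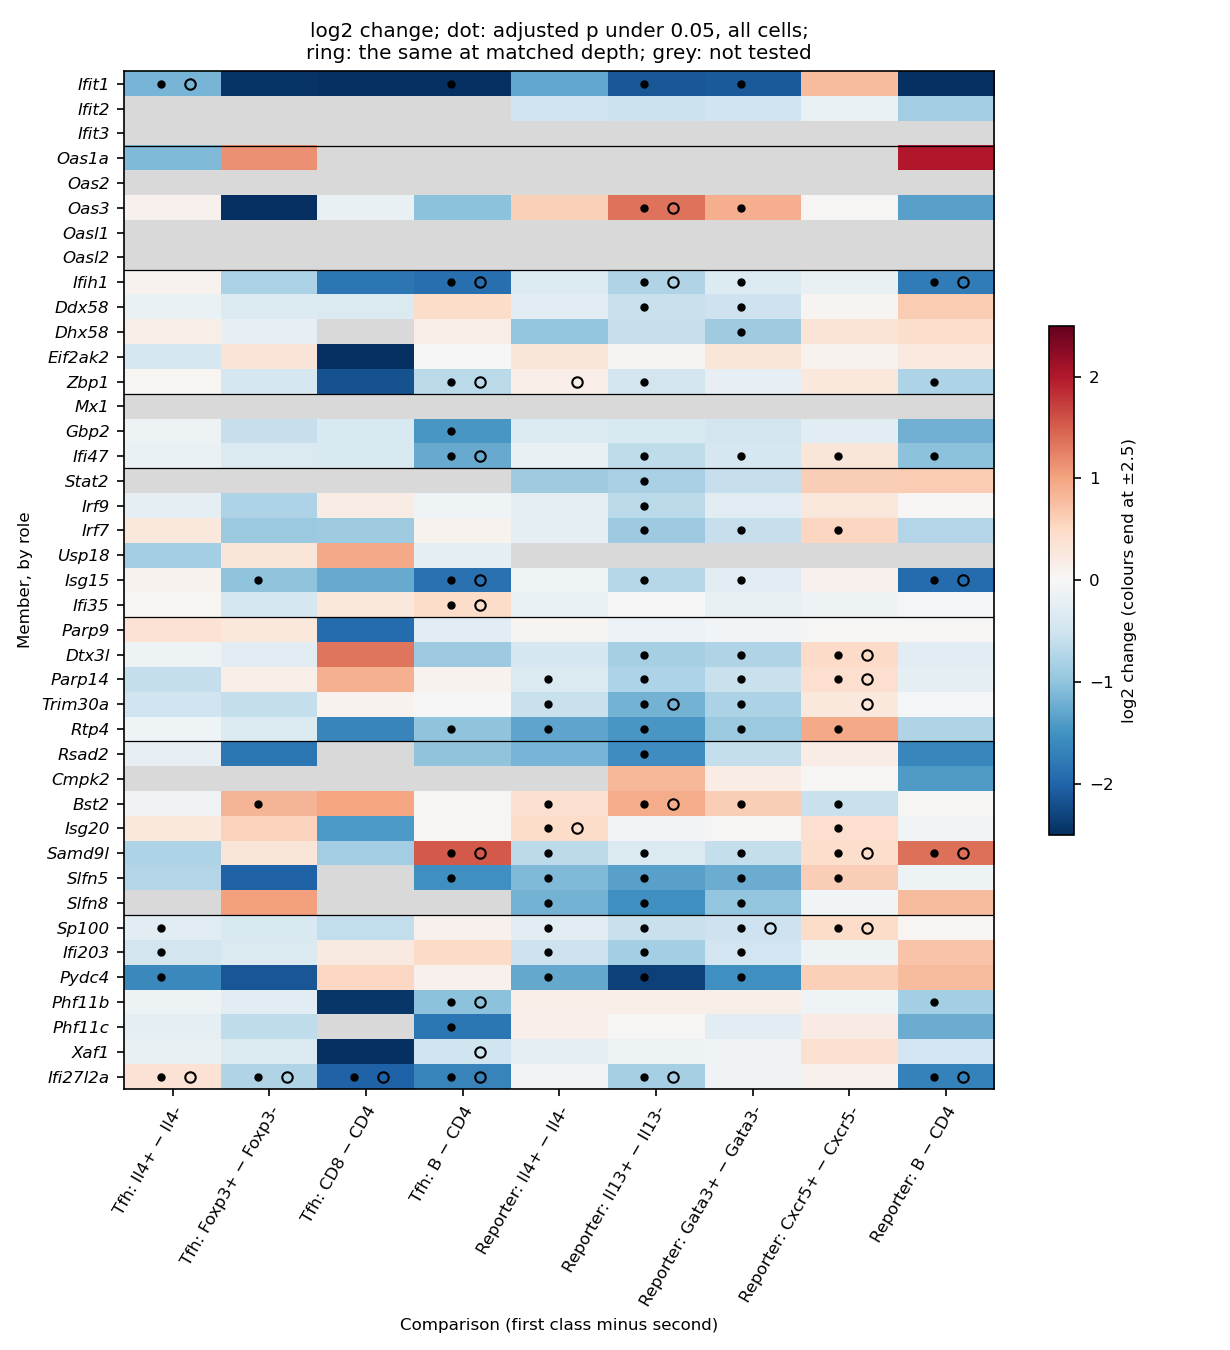
log2 change of each member (rows, by role, lines between roles) in the 9 tested comparisons (columns, first class minus second), from blue (lower in the first class) to red (higher), ending at ±2.5; a dot marks an adjusted p under 0.05 in all cells, a ring the same at matched depth, and grey a member that did not pass the count filter. The Il13 and Gata3 columns of the reporter sort hold 23 and 19 dots and 5 and 1 rings, and the B-cell columns hold 13 and 7 dots.

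Il4+ cells of the reporter sort had 2 members higher and 9 lower of 33 tested, against 13.9% and 11.9% of 9587 genes (25.7% together). Slfn5 had 9.33, 8.18 and 7.75 CPM in Il4+ cells and 18.1, 17.0 and 19.5 CPM in Il4- cells (log2 change -1.10 ± 0.20, adjusted p = 0.00067), without overlap. At matched depth it was at -0.35 (adjusted p = 0.55). Slfn8 had 3.33, 3.64 and 3.88 CPM in Il4+ cells and 6.95, 11.2 and 6.91 CPM in Il4- cells (log2 change -1.18 ± 0.31, adjusted p = 0.0098). Samd9l had 17.3, 15.9 and 14.1 CPM in Il4+ cells and 21.2, 30.2 and 22.8 CPM in Il4- cells (log2 change -0.65 ± 0.17, adjusted p = 0.011). The classes of Slfn8 and Samd9l did not overlap either. Rtp4 (-1.31, adjusted p = 0.035) and Pydc4 (-1.28, adjusted p = 0.035) rested on 13 UMIs each in Il4+ cells. Bst2 had 74.0, 86.8 and 63.0 CPM in Il4+ cells and 58.1, 59.6 and 54.8 CPM in Il4- cells (log2 change 0.40 ± 0.10, adjusted p = 0.0066; 0.07 at matched depth).

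Isg20, an exonuclease of single-stranded RNA, had 48.0, 34.5 and 27.1 CPM in Il4+ cells and 28.4, 25.7 and 25.7 CPM in Il4- cells (log2 change 0.45 ± 0.14, adjusted p = 0.03; 0.73 at matched depth, adjusted p = 0.009), with mouse 3 of the Il4+ cells inside the range of the Il4- cells. Without mouse 1 it was at 0.28 (adjusted p = 0.24) and without mouse 2 at 0.47 (adjusted p = 0.078). The 11 calls of this comparison were 2 without mouse 2 and 7 without mouse 3, and at matched depth (6.41% of genes called) 2 members rose (Isg20 and Zbp1) and none of 25 fell. Over all genes the 2465 calls were 1563 without mouse 2 and 1955 without mouse 3. Without mouse 2 the log2 change was -0.89 for Slfn8 (adjusted p = 0.17), -0.47 for Samd9l (adjusted p = 0.17), -0.83 for Pydc4 (adjusted p = 0.26), -1.39 for Rtp4 (adjusted p = 0.068) and 0.31 for Bst2 (adjusted p = 0.12). Without mouse 3, Rtp4 was at -0.74 (adjusted p = 0.31) and Pydc4 at -1.30 (adjusted p = 0.1).

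Ifi27l2a was the 1 of 34 members whose change with Il4 was called as different between the sorts, a share near that over all genes (3.41% of 8830). Its change was 0.43 ± 0.08 SE higher on the log2 scale in the Tfh sort by edgeR's interaction term (adjusted p = 0.0012). Of the 34 members, 5 had an unadjusted p under 0.05, and members without a call are not shown to change alike in both sorts. In the reporter sort Ifi27l2a had 2243, 1466 and 1474 CPM in Il4+ cells and 2062, 1680 and 1679 CPM in Il4- cells, higher in mouse 1 and lower in mice 2 and 3. With Il4- cells matched for depth, at 1962, 1268 and 1639 CPM, Il4+ cells were higher in mice 1 and 2 and lower in mouse 3. In the Tfh sort at matched depth it had 3717, 3369 and 3560 CPM in Il4+ cells and 2525, 3027 and 2548 CPM in Il4- cells, higher in each mouse. The difference between the sorts was not tested at matched depth. Median UMIs per cell were 10806, 12137.5 and 10259.5 in Il4+ cells and 6323, 6175 and 5697 in Il4- cells of the reporter sort. They were 3262.5, 3331.5 and 3608 in Il4+ cells and 2613.5, 2342 and 2439 in Il4- cells of the Tfh sort. Il4- cells of the reporter sort were also sorted as reporter-positive. Gate, strain, chemistry version and sequencing run differ with the sort, so the difference cannot be told apart from them.

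Cxcr5+ cells of the reporter sort, which share the Tfh homing receptor, had more of several members than Cxcr5- cells. Of 34 members tested 9 rose and 1 fell, against 8.39% and 10.7% of 10050 genes (19.1% together). The median log2 change was 0.24 for members and 0.01 for all genes. Sp100 had 209, 210 and 190 CPM in Cxcr5+ cells and 144, 144 and 140 CPM in Cxcr5- cells (log2 change 0.47 ± 0.07, adjusted p = 7.2e-05), and at matched depth the change was again 0.47 (adjusted p = 0.0013). Slfn5 had 19.9, 22.8 and 22.0 CPM in Cxcr5+ cells and 13.8, 13.7 and 13.6 CPM in Cxcr5- cells (log2 change 0.61 ± 0.17, adjusted p = 0.013). Rtp4 had 10.9, 6.23 and 7.34 CPM in Cxcr5+ cells and 4.01, 4.11 and 4.14 CPM in Cxcr5- cells (log2 change 0.94 ± 0.29, adjusted p = 0.029). All 3 were higher in each mouse, with no overlap.

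Irf7, the regulator that amplifies type I interferon, had 24.4, 18.7 and 18.6 CPM in Cxcr5+ cells and 15.0, 13.4 and 12.6 CPM in Cxcr5- cells (log2 change 0.54 ± 0.17, adjusted p = 0.029). Dtx3l, a ubiquitin ligase that works with Parp9, had 21.8, 18 and 30.2 CPM in Cxcr5+ cells and 15.2, 15.7 and 18.4 CPM in Cxcr5- cells (log2 change 0.48 ± 0.16, adjusted p = 0.044), with overlap. Bst2 fell, with 37.2, 58.8 and 45.8 CPM in Cxcr5+ cells and 67.3, 75.2 and 61.8 CPM in Cxcr5- cells (log2 change -0.57 ± 0.11, adjusted p = 0.001; -0.37 at matched depth, adjusted p = 0.11). The other members that rose were Isg20, Ifi47, Parp14 and Samd9l. At matched depth 5 of 28 members rose and none fell (Sp100, Dtx3l, Parp14, Samd9l and Trim30a), against 10.2% of genes called, and the members' median was 0.34. The 10 calls were 2 without mouse 1 and 5 without mouse 3. Over all genes the 1922 calls were 1119 without mouse 1 and 1530 without mouse 3. Without mouse 1, Rtp4 was at 0.68 (adjusted p = 0.25), Irf7 at 0.47 (adjusted p = 0.17), Dtx3l at 0.48 (adjusted p = 0.14) and Slfn5 at 0.66 (adjusted p = 0.05). Without mouse 3, Irf7 was at 0.57 (adjusted p = 0.071), Dtx3l at 0.33 (adjusted p = 0.36), Slfn5 at 0.60 (adjusted p = 0.059) and Rtp4 at 1.05 (adjusted p = 0.05).

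The sum of the 40 members was 1107, 1126 and 1102 CPM in Cxcr5+ cells and 965, 957 and 958 CPM in Cxcr5- cells of all depths. It was 963, 928 and 927 CPM in the Cxcr5- cells at matched depth, where all Cxcr5+ cells stayed in. It was therefore higher in every mouse either way. Sp100, the highest of the 40 members in these CD4 T cells, is part of the sum and was itself higher in each mouse. The sum without Sp100 was not compared. B-cell markers summed to 201, 213 and 266 CPM in Cxcr5+ cells (6 of 7 seen, Cd79a at 0) and 101, 92.9 and 139 CPM in Cxcr5- cells, and their part in the result was not tested. Ifng averaged 18.9 CPM in Cxcr5+ cells and 44.1 CPM in Cxcr5- cells (log2 change -1.10, adjusted p = 0.0041; -1.27 at matched depth, adjusted p = 0.0085). Ifitm3 (log2 change -2.66, adjusted p = 8.8e-10) and Ifitm2 (-1.39, adjusted p = 7.5e-07) led 7 lower and 4 higher of 44 other interferon-induced genes. Over all genes 10.7% fell and 8.39% rose.

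**Figure D5:**
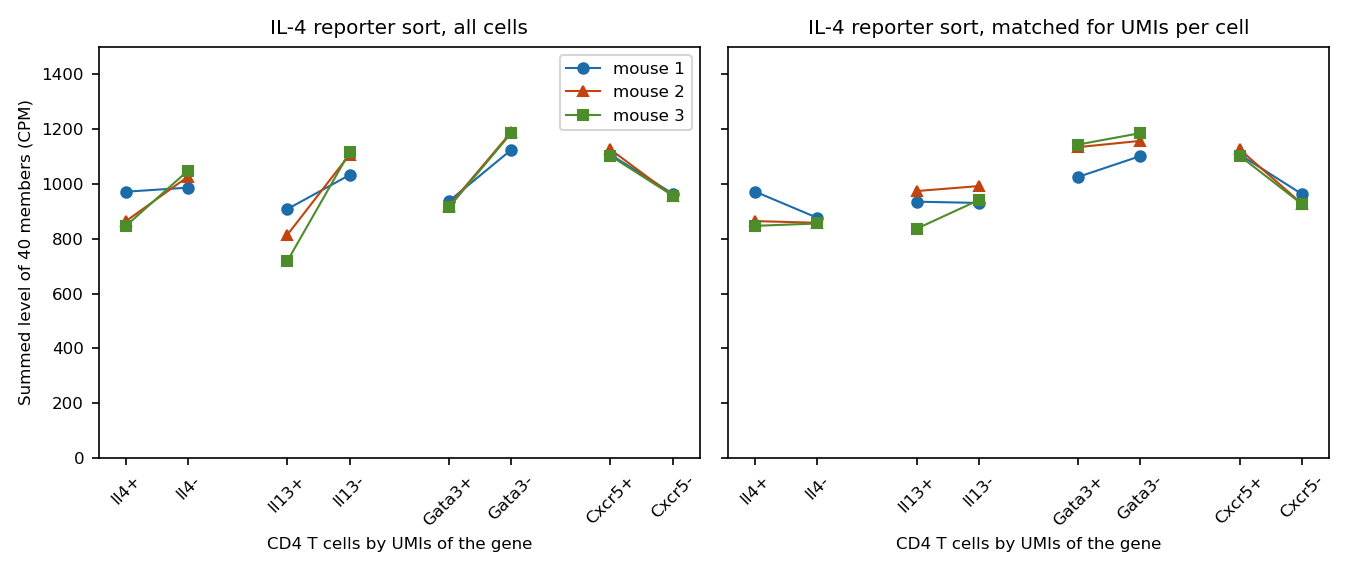
Summed level of 40 members (CPM, Ifi27l2a left out) in CD4 T cells of the IL-4 reporter sort split by transcripts of Il4, Il13, Gata3 or Cxcr5, for all cells (left) and for classes matched for UMIs per cell within each mouse (right); lines join the 2 classes of a mouse. The Il13 and Gata3 gaps shrink at matched depth, and the Cxcr5+ cells stay above the Cxcr5- cells in all 3 mice.

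The remaining pairs of classes were not tested and are given as values. In the Tfh sort, Ifi27l2a had 3850, 2555 and 3370 CPM in Il13+ cells and 3002, 3189 and 2866 CPM in Il13- cells, and Isg15 had 116, 168 and 82.2 CPM in Il13+ cells and 136, 153 and 130 CPM in Il13- cells, both with overlap. Sp100 had 176, 189 and 164 CPM in Gata3+ cells and 210, 217 and 192 CPM in Gata3- cells of the Tfh sort, lower in each mouse as in the reporter sort. It had 224, 223 and 172 CPM in Cxcr5+ cells and 185, 199 and 187 CPM in Cxcr5- cells there, higher in mice 1 and 2 only. In the reporter sort, Foxp3+ cells (10, 6 and 6 cells) had 1758, 717 and 1101 CPM of Ifi27l2a and Foxp3- cells 2170, 1591 and 1598 CPM, lower in each mouse.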

How the data were processed

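Single-cell RNA was counted in 2 droplet lanes, 1 per sort, each with 3 mice. The tables deposited by the authors give whole UMI counts for each gene in each cell. Tools listed by the submitters' processing notes are Cell Ranger 2.2.0, bcl2fastq 2.18.0.12 and 2.20.0.422 with the builds mm10 and GRCm38, while the header of the reporter table names Cell Ranger 3.0.2 per the file headers. A cell was kept with 500 genes or more and no more than 10% of UMIs from mitochondrial genes, and given to a mouse where a hashtag had 10 or more counts and 3 times the next one. That rule removes doublets between mice; doublets within a mouse are not visible to it and no caller was run. Of the assigned cells, UMIs per mouse ran from 3378446 to 5434703 in the Tfh sort and from 12024433 to 15123654 in the reporter sort.

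CD4 T cells had no Cd79a, Cd8a or Cd8b1 UMI and at least 1 UMI of the T-cell receptor complex. UMIs were summed per mouse and class of 10 or more cells and tested with edgeR 4.0.16 in R 4.3.3 (TMM scaling, filterByExpr with a minimum count of 10, quasi-likelihood test, threshold 0.05 after Benjamini-Hochberg adjustment over all genes). The mouse was a block, since both classes came from the same animal. Whether the hashtags mark separately housed or treated mice is not given in the sources used here. Alternatives were DESeq2 1.42.0, another scaling (RLE), no count filter, no block, other cell, hashtag and class thresholds, matched depth, removal of cells with macrophage UMIs, and each mouse left out. That removal took out cells with 3 or more summed UMIs of Lyz2, C1qa, C1qb and C1qc. Intervals cover counting error only. Members named with full values were, in each comparison, up to 5 per direction with the largest change among those called and moved alike in 3 of 3 mice (both mice for Foxp3), and the 8 highest members of each sort. Any further member was picked with its values known. The members and lists were chosen with earlier results of these data known. On simulated data the test recovered 39 to 99% of genes changed 4-fold and 9 to 82% of those changed 2-fold, depending on the comparison. The simulation gave every gene and comparison the same fixed spread and no difference between mice. These shares are therefore not the power of the tests on the real sums.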

Additional observations from a re-analysis of the deposited data

Results flagged for a closer look

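The change of Ifi27l2a between Il4+ and Il4- cells differed between the sorts, by 0.43 on the log2 scale (Tfh minus reporter, tested by the interaction term). That was 1 call among 34 members, where 3.41% of 8830 genes were called. Gate, strain, chemistry version, sequencing run and depth differ with the sort, so this difference cannot be told apart from them.

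Barcodes outside the comparisons also held the members, above the level that a count of 0 allows. In CPM of the UMIs that were not mitochondrial, the 40 members summed to 1071 (95% counting interval 993 to 1153) in the 136 cells of the Tfh sort without a mouse and to 806 (598 to 1063) in its 37 barcodes above the mitochondrial limit, against 1205 (1187 to 1224) in its assigned cells. In the reporter sort they summed to 1060 (1022 to 1100) in the 596 cells without a mouse and to 1278 (1248 to 1309) in the 2772 barcodes above the mitochondrial limit, against 1005 (995 to 1015) in its assigned cells.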

How the results depend on the processing

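At matched depth the number of members called was 2 for Il4 in the Tfh sort (5 in all cells), 1 for Foxp3 (3), and in the reporter sort 2 for Il4 (11), 5 for Il13 (23), 1 for Gata3 (19), 5 for Cxcr5 (10) and 4 for B cells (7). Fewer cells and members enter there. Calls over all genes were 76 for Il4 (455 in all cells) and 21 for Foxp3 (435) in the Tfh sort. In the reporter sort they were 539 for Il4 (2465), 1785 for Il13 (5622) and 564 for Gata3 (4122). Cxcr5 had 840 (1922) and B cells 594 (1566). DESeq2 called 1, 1 and 8 members for Il4, Foxp3 and B cells (13) of the Tfh sort and 2, 9 and 2 for Il4, Gata3 and Cxcr5 of the reporter sort. Without the block for the mouse, 3 members were called for Il4 and 2 for CD8-like cells of the Tfh sort (1 with it) and 5 for Cxcr5. Over all genes these were 317 (455 with it), 521 (343) and 1235 (1922). With 1000 genes and 5% mitochondrial UMIs as limits, 2 members were called for Il4 in the Tfh sort, and 1 for Il4 and 0 for Cxcr5 in the reporter sort. Those limits gave 193 (455 with the main limits), 543 (2465) and 230 (1922) calls over all genes. Other class thresholds gave 3 for Il4 in the Tfh sort and 4 for Cxcr5, and no count filter gave 11 for B cells of the reporter sort. The matching calls over all genes were 326 (455 in the main setting), 1105 (1922) and 2022 (1566). Leaving out 1 mouse gave 2 to 4 calls for Il4, 0 to 2 for CD8-like cells and 9 to 12 for B cells in the Tfh sort, and 2 to 14 for Il4, 18 to 25 for Il13, 14 to 21 for Gata3, 2 to 9 for Cxcr5 and 6 to 9 for B cells in the reporter sort. Over all genes the Tfh sort then had 207 to 375 calls for Il4 and 0 to 270 for CD8-like cells. Its B cells had 1979 to 2396. The reporter sort had 1563 to 2239 for Il4, 4201 to 5590 for Il13 and 3115 to 4090 for Gata3. Its Cxcr5 comparison had 1119 to 1554 and its B cells 1036 to 2259. For Foxp3 no mouse could be left out. The cause of these differences was not tested.

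Of 537 values of named members under alternatives, 426 kept their direction and their side of the threshold, 110 lost the call and 1 reversed (Rtp4 with Gata3, 0.015 at matched depth); DESeq2 gave no adjusted p for 5 more. Another scaling and the removal of cells with 3 or more UMIs of Lyz2, C1qa, C1qb and C1qc changed none of 49 calls. The variance over the mean per cell was 4.63 (Tfh sort) and 2.09 (reporter sort) at 2500 UMIs, and the summed level in the reporter sort was 908 CPM under the stricter cell limits and 981 CPM under the stricter hashtag rule, against 985 CPM. Depth limits the members under 1 CPM and the classes under 100 cells.

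Over all genes, DESeq2 called 86 for Il4 in the Tfh sort, where edgeR called 455, and 116 for Foxp3 (435), 159 for CD8-like cells (343) and 1537 for B cells (2756). In the reporter sort it called 971 for Il4 (2465), 2206 for Gata3 (4122) and 675 for Cxcr5 (1922). RLE scaling moved the members' median log2 change in CD8-like cells to -0.42, against -0.61 with TMM.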
